A study of Rattus norvegicus with 6 samples.

Results

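Usp1, Wdr48 and Rfc1 were followed through 3 transcripts of the 31715 whose counts were deposited, ENSRNOT00000084640.1 for Usp1, ENSRNOT00000082356.1 for Wdr48 and ENSRNOT00000088674.1 for Rfc1. The 3 transcripts were chosen by their measured values, since each stood among the transcripts that the study listed as lower after a high-salt diet. Their own levels in the 2 diet groups are therefore given as a description, and no test of them is used as support. What the choice did not use directly was the level of the other transcripts that share their reads, and the account turns on that comparison.

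The RNA came from basilar artery smooth muscle cells (BASMCs) of male Sprague-Dawley rats that were 6 weeks old and weighed 180 to 200 g when obtained, with the artery of 1 rat in each library. The control group held 3 rats on ordinary chow. The high-salt diet group held 3 rats given the same chow with 4% NaCl added for 4 weeks, after which their systolic blood pressure had risen by more than 30 mmHg. The endothelium had been scraped away with a wire, and no sorting of the cells is described, so the libraries hold whatever cells the cleaned arterial wall retained. In such bulk libraries, fewer cells of a type and less RNA per cell cannot be told apart.

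Total counts were 12896098, 24718338 and 23198636 for control replicates 1 to 3 in turn, and 16159272, 19522923 and 20589033 for high-salt replicates 1 to 3. Levels are given in CPM, the counts scaled to a common library size after the trimmed mean of M values (TMM). A count of 0 allows up to 3 counts in a library, which is 0.254 CPM in control replicate 1 and 0.119 to 0.164 CPM in the other 5 libraries. This floor covers counting error only. The replicate 1 libraries of both groups stood apart from the rest. Their deviations from the group means correlated at 0.596 across 21808 transcripts, which are not independent replicates, whereas those of control replicate 1 correlated at -0.284 and -0.397 with high-salt replicates 2 and 3. The sums of counts of Usp1 and Wdr48 are therefore also given without both replicate 1 libraries, an alternative chosen after the data were seen.

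Usp1 is a deubiquitinase, an enzyme that takes ubiquitin off other proteins. Its best known substrates are PCNA, the ring-shaped clamp that holds DNA polymerases on their template, and Fancd2, a protein of DNA crosslink repair. Wdr48, also called Uaf1, is the partner that binds Usp1 and raises its activity. Rfc1 is the large subunit of replication factor C, the loader that opens the PCNA ring and places it around DNA. Ubiquitin is added to PCNA at stalled replication forks, where it recruits polymerases that copy past damage, and Usp1 with Wdr48 reverses that step. The pathway is best known in dividing cells, and smooth muscle of the adult arterial wall divides rarely.

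All 3 genes were matched by symbol to promoters of the RefSeq annotation of the rat build GRCr8, and the 120 bases just before each annotated start are shown because the 3 transcripts were picked for sharing a direction. All 3 lie on the plus strand, at chr5:118702936-118703055 for Usp1, chr8:128499601-128499720 for Wdr48 and chr14:43319878-43319997 for Rfc1, and they stop at the last base before the start. The deposited counts were made on the older build Rnor_6.0 and its transcripts were not paired with these starts, so the sequences belong to the genes and not to the counted transcripts. Capitals mark motifs found in the 250 bases before the start on either strand.
Usp1: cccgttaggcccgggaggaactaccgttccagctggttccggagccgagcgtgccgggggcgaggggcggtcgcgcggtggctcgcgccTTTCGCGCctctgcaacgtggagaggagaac
Wdr48: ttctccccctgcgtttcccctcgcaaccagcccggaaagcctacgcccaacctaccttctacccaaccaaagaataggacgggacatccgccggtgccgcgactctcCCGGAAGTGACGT
Rfc1: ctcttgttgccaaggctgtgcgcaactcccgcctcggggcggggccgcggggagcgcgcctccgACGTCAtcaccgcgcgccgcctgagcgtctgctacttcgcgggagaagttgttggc

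The Usp1 promoter held the E2F motif TTTNGCGC, 31 to 24 bases before the start. This motif was present in 1.11% of the 27457 promoters of the same length. The Wdr48 promoter held the ETS motif CCGGAAGT at 13 to 6 bases before the start. It also held TGACGT, a half-site of the cAMP response element, at 6 to 1 bases, and the motifs overlap by 1 base. These were present in 3.29% and 7.25% of promoters. Rfc1 held the same half-site of the cAMP response element on the minus strand, read as ACGTCA, 56 to 51 bases before the start. No motif was shared by all 3 promoters. The cell cycle motif TTTGAA, found in 16.0% of promoters, and the CCAAT box, found in 34.3%, were in none of the 3 windows. A match describes letters and not a bound site.

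Kallisto splits reads that match more than 1 transcript, so a transcript can hold a count that is not whole while the sum over the transcripts that share the reads is whole. Rows next to each other in the deposited table were therefore joined where their non-whole counts summed to within 0.01 of a whole number in every library. This gave 2823 groups with 6657 rows. Usp1 and Wdr48 each formed a group with 1 other row. Their sums lay within 0.002 and 0.005 of whole numbers in all 6 libraries. Rfc1 formed none, and its sum with the row before it missed whole numbers by 0.0351 to 0.430.

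The Usp1 transcript was detected in each control rat and in no rat of the high-salt diet group. It had 91.4, 88.0 and 207 estimated counts in control replicates 1, 2 and 3 and 0 counts in all 3 high-salt libraries. These counts correspond to 7.74, 3.49 and 9.14 CPM in the control libraries, a mean of 6.79 ± 2.94 CPM (SD, n = 3). The control mean was 43.5-fold above the mean floor of 0.156 CPM per high-salt library, a floor that covers counting error only. The lowest control library, at 3.49 CPM, was nearer to it. The groups did not overlap, with control replicate 3 highest and control replicate 2 lowest among the libraries that had counts.

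The row that shares reads with Usp1, ENSRNOT00000010933.6, held most of the counts of the group in every library. Control rats 1, 2 and 3 had 581, 1088 and 854 counts of it, and high-salt rats 1, 2 and 3 had 958, 685 and 748. As levels these were 49.2, 43.2 and 37.6 CPM against 52.4, 36.1 and 36.5 CPM. The groups overlapped, and the control mean of 43.3 ± 5.79 CPM (SD, n = 3) was close to the high-salt mean of 41.7 ± 9.33 CPM (SD, n = 3). By the edgeR exact test its log2 fold change was -0.06 (adjusted p = 1). All counts of this row were whole in the high-salt libraries, where no read of the group was assigned to the Usp1 transcript.

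The sum over both rows moved far less than the Usp1 transcript, and the choice fixed much of that contrast. The Usp1 transcript was picked for its own loss and held 13.3% of the counts of the group over the control libraries. Its complete loss alone could therefore move the sum little. The sums were 56.9, 46.6 and 46.8 CPM in the control libraries and 52.4, 36.1 and 36.5 CPM in the high-salt libraries. The high-salt diet group had a mean of 41.7 ± 9.33 CPM (SD, n = 3) and the control group a mean of 50.1 ± 5.91 CPM (SD, n = 3). High-salt replicate 1 lay within the control values and the other 2 high-salt libraries lay under them. The log2 fold change was -0.27 (edgeR exact test, adjusted p = 1), and -0.27 with a standard error of 0.36 in DESeq2. The difference was smaller than this standard error, which takes no account of the replicate numbers, and it was -0.36 without the replicate 1 libraries of both groups. Same-numbered libraries were also compared, after the data were seen. The log2 ratios of the sum, high salt over control, were -0.12, -0.37 and -0.36 for replicates 1, 2 and 3. Their mean was -0.28 with a standard error of 0.082. That standard error holds only if same-numbered rats were pairs, which the titles do not say, so no paired decrease is read from it. With the replicate block, the quasi-likelihood test of edgeR gave -0.28 with an adjusted p = 0.992, so the lower sum did not pass the test. The sum contains the chosen transcript, so it is not independent of the choice.

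Within the group, the Usp1 transcript took 13.6% of the counts in control replicate 1 (95% exact Clopper-Pearson interval 11.0% to 16.4%). The share was 7.48% (6.04% to 9.14%) in control replicate 2 and 19.5% (17.2% to 22.0%) in control replicate 3. The 3 intervals did not overlap, but they cover counting error only and not the error of dividing reads between the rows. In high-salt replicates 1, 2 and 3 the share was 0%, and the floor of 3 counts was 0.313%, 0.438% and 0.401% of the group. How the reads were divided between the rows was estimated by Kallisto, and the part of that estimate in the zeros was not tested.

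**Figure D1:**
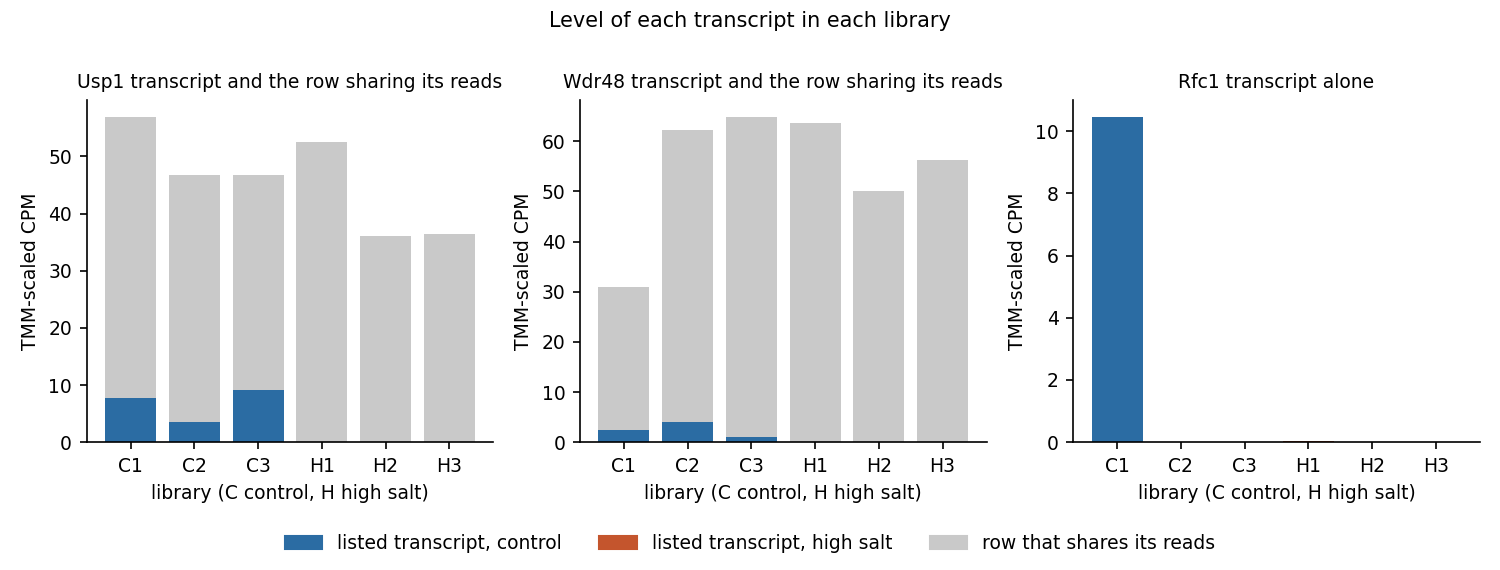
Bars show TMM-scaled CPM in each control library (C1 to C3) and high-salt library (H1 to H3), with the listed transcript in colour and the row that shares its reads stacked on it in grey. The coloured part of Usp1 and of Wdr48 is present in C1 to C3 and at 0 in H1 to H3 while the whole bars overlap between the groups, and Rfc1 stands at 10.5 CPM in C1 and at 0.0463 CPM or less in the other libraries.

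The Wdr48 transcript followed the same pattern at a lower level. It had 29.1, 102 and 23.5 estimated counts in the control libraries, and its counts in the high-salt libraries rounded to 0. Its levels were 2.47, 4.04 and 1.04 CPM, a mean of 2.51 ± 1.50 CPM (SD, n = 3). The control mean was 16.1-fold above the same floor, and the lowest control library, at 1.04 CPM, was nearer to it. The groups did not overlap, and control replicate 2 was the highest library, whereas for Usp1 it was the lowest of the control libraries.

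The row that shares reads with Wdr48 is ENSRNOT00000024172.7. Control rats 1, 2 and 3 had 337, 1466 and 1449 counts of it, and high-salt rats 1, 2 and 3 had 1162, 950 and 1155. The levels were 28.5, 58.2 and 63.9 CPM against 63.6, 50.0 and 56.3 CPM. Control replicate 1 was the lowest of the 6 libraries, and the other 5 overlapped between the groups. The log2 fold change of this row was 0.17 (edgeR exact test, adjusted p = 1).

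Summed over both rows, the Wdr48 group held 31.0, 62.2 and 64.9 CPM in the control libraries and 63.6, 50.0 and 56.3 CPM in the high-salt libraries. The control mean was 52.7 ± 18.8 CPM (SD, n = 3) and the high-salt mean 56.7 ± 6.78 CPM (SD, n = 3). The log2 fold change was 0.10 (edgeR exact test, adjusted p = 1), and 0.10 with a standard error of 0.42 in DESeq2. Its sign rested on control replicate 1. Without that library the log2 fold change was -0.18 and without replicate 1 of both groups it was -0.25 (edgeR exact test, adjusted p = 1 for each). Between same-numbered libraries, which are not known to be pairs, the log2 ratios were 1.04, -0.31 and -0.20 for replicates 1, 2 and 3. Replicate 1 thus went against replicates 2 and 3. No direction can therefore be given for the sum of Wdr48. The Wdr48 transcript held 4.53% of the counts of the group over the control libraries, so its complete loss alone could move the sum little.

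The share of the Wdr48 transcript in its group was 7.96% (95% exact Clopper-Pearson interval 5.37% to 11.2%) in control replicate 1. It was 6.49% (5.33% to 7.84%) in control replicate 2 and 1.60% (1.05% to 2.41%) in control replicate 3. Control replicate 3 therefore had the lowest share of Wdr48 and the highest share of Usp1. In the high-salt libraries the member rounded to 0 counts, and the floor of 3 counts was 0.258%, 0.316% and 0.260% of the group.

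**Figure D2:**
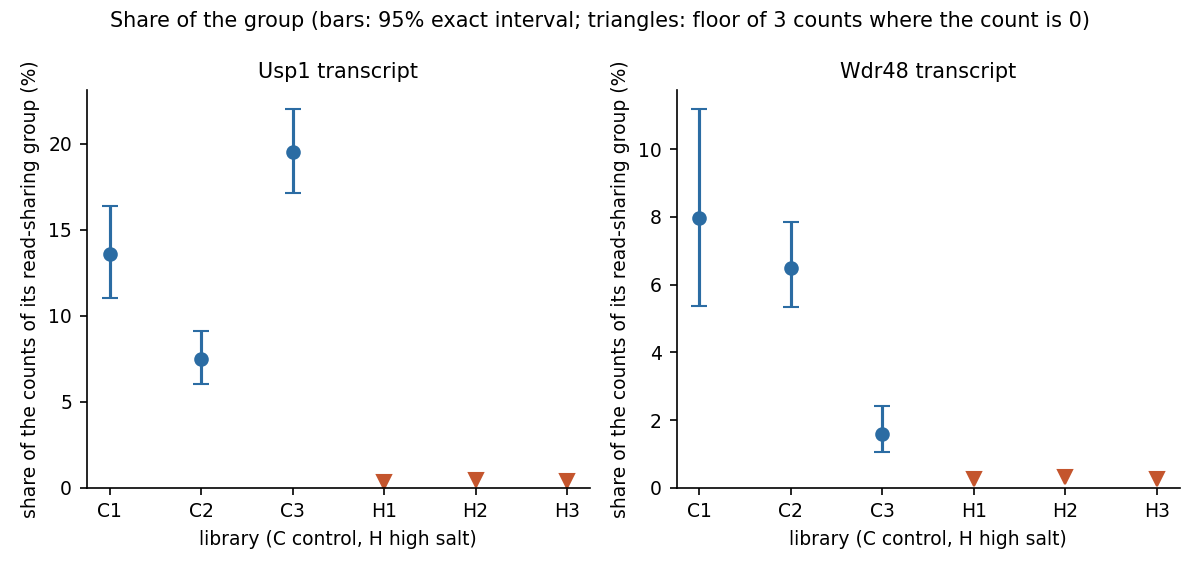
Points show the percent of the counts of the read-sharing group that went to the Usp1 or the Wdr48 transcript in each control library (C1 to C3), with 95% exact intervals, and triangles show the floor of 3 counts in each high-salt library (H1 to H3), where the count was 0. The lowest control share is 7.48% for Usp1 and 1.60% for Wdr48, and the highest floor is 0.438% in H2 for Usp1, where the upper bound of the exact interval is 0.537%.

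The Rfc1 transcript differed from both, in that nearly all its counts came from 1 control rat. Control replicate 1 had 123 estimated counts, or 10.5 CPM, and control replicates 2 and 3 had 0. High-salt replicate 1 had 0.846 estimated counts, or 0.0463 CPM, and high-salt replicates 2 and 3 had 0. The groups overlapped. On the log2(CPM + 1) scale the high-salt diet group was lower by a difference of -1.15, and without control replicate 1 the difference was 0.022. The 2 libraries with any counts of Rfc1 were the replicate 1 libraries that stood apart from the other 4, and the part of this in the result was not tested.

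The rule on whole sums was not met for Rfc1, so loss of this transcript could not be set against the sum of a read-sharing group. The row before it in the table, ENSRNOT00000003907.7, also had non-whole counts in every library. Its levels were 65.8, 56.4 and 61.5 CPM in the control libraries and 47.5, 59.1 and 48.8 CPM in the high-salt libraries. High-salt replicate 2 lay within the control values. Adding this row to Rfc1, an alternative chosen after the data were seen, gave a control mean of 64.7 ± 10.3 CPM (SD, n = 3) and a high-salt mean of 51.8 ± 6.32 CPM (SD, n = 3). The log2 fold change of that sum was -0.32 (edgeR exact test, adjusted p = 1).

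The 3 transcripts were thus highest in 3 different control rats, Usp1 in control replicate 3, Wdr48 in control replicate 2 and Rfc1 in control replicate 1. Of all 24253 transcripts with at least 1 rounded count, the exact test of edgeR placed 1 under an adjusted p of 0.05, which is 0.00412%, and it was the Usp1 transcript. Usp1 is no longer placed there by the quasi-likelihood test of edgeR, where its adjusted p was 0.9997 without a block and 0.992 when the replicate block was added. Its adjusted p was 3.73e-05 in DESeq2, and in the exact test it was 0.00118 after the expression filter and 0.0156 with the size factors of DESeq2. Leaving out single libraries in the exact test gave an adjusted p from 0.00975 without high-salt replicate 2 to 0.477 without control replicate 3. It was also over 0.05 without control replicate 1 (0.0901), high-salt replicate 1 (0.0673) or high-salt replicate 3 (0.137). At an unadjusted p under 0.05 and a level 2-fold or more below control, 157 transcripts or 0.647% were called, 2 of the 3 members among them, Usp1 and Wdr48. All control libraries were above all high-salt libraries for 811 transcripts or 3.34%, again with Usp1 and Wdr48 among them. The members were selected on this same comparison, so nothing is read from these counts.

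At the level of read-sharing sums and single rows, the exact test of edgeR placed 0 of 20455 under an adjusted p of 0.05, or 0.0%, and 253 or 1.24% under an unadjusted p of 0.05. None of the sums of Usp1 and Wdr48 was in either count. DESeq2 placed 4 of 15552 under an adjusted p of 0.05, the exact test after the expression filter of edgeR placed 3, and the quasi-likelihood test placed 0 with and without the replicate block. Leaving out 1 library in the exact test gave 0 to 10, the most without high-salt replicate 1, and leaving out replicate 1 of both groups gave 17, with the sums of Usp1 and Wdr48 at an adjusted p = 1 in each. The unadjusted p of the Usp1 sum was 0.525 and that of the Wdr48 sum 0.826 in the exact test of edgeR on 3 rats against 3. A p that misses the threshold does not show that the sums were equal.

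**Figure D3:**
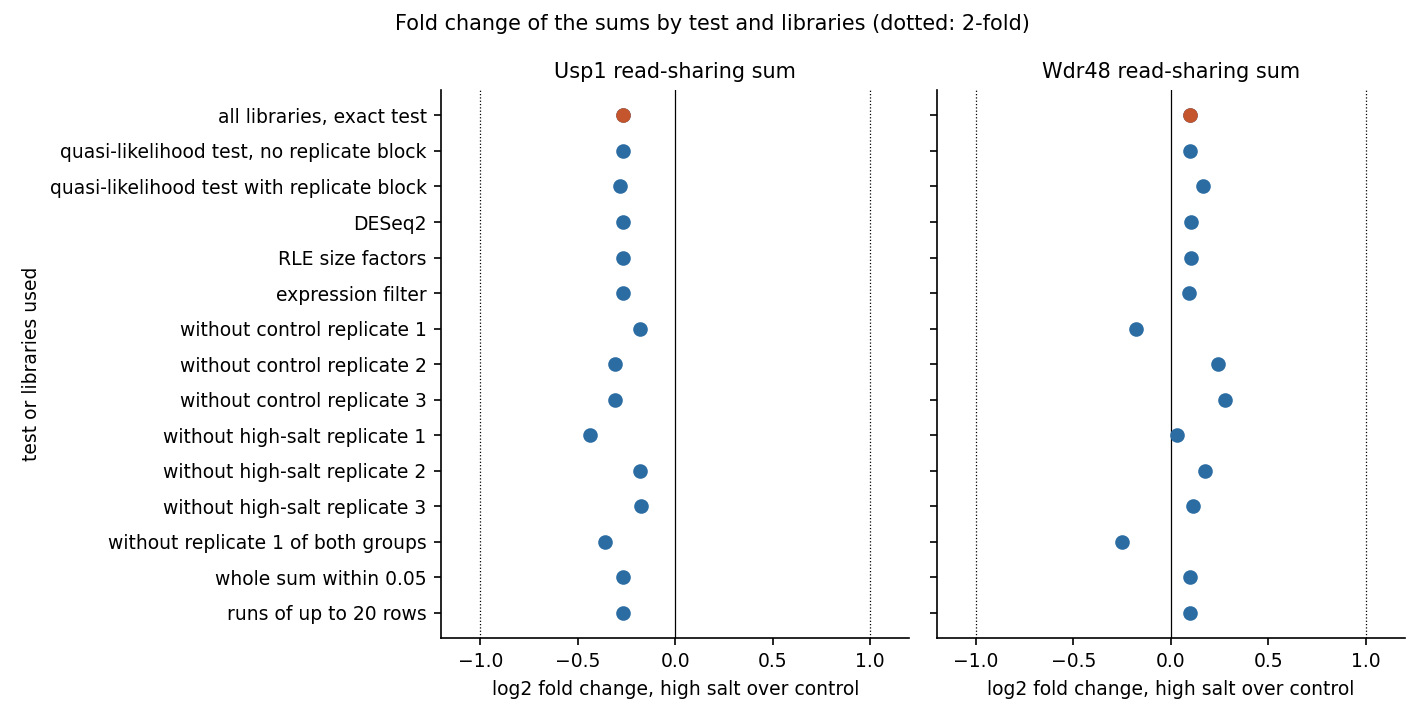
Points show the log2 fold change, high salt over control, of the read-sharing sums of Usp1 and Wdr48 under each test or set of libraries, with all 6 libraries in the exact test of edgeR in orange. The Usp1 sum stays between -0.44 and -0.17, and the Wdr48 sum lies under 0 when control replicate 1 or both replicate 1 libraries are left out.

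No annotation pairing transcript identifiers with genes was used. Gene names came from the study's list of changed transcripts, so other genes of the pathway were looked for there alone. Of 32 genes of the Usp1 complex, the PCNA clamp and its loaders, 4 were paired, and these were Usp1, Wdr48, Rfc1 and Hus1. The study chose that list on these samples, so a direction within it is not independent evidence. Hus1, a subunit of the checkpoint clamp that is related in shape to PCNA, had 13.4, 0 and 189 counts of ENSRNOT00000006852.7 in control rats 1 to 3 and 0 in all high-salt rats. Its read-sharing sum was 7.71, 13.8 and 14.1 CPM in the control libraries and 9.14, 11.3 and 11.7 CPM in the high-salt libraries. The sums overlapped, and the log2 fold change was -0.15 (edgeR exact test, adjusted p = 1).

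The ubiquitin ligases followed among the listed transcripts were Rnf123, Nedd4l, Birc3 and Hectd2, and a search by name for others of the Usp, Ube, Rnf, Trim, Fbx or Asb families found none beyond these and Usp1. Rnf123 (ENSRNOT00000050344.5) had 21.6, 159 and 77.8 counts in control rats 1 to 3 and 0 in each high-salt rat, and no run of adjacent rows closed its non-whole counts to whole sums. Birc3, an inhibitor of apoptosis with ligase activity, had 17.9, 86.4 and 0 counts of ENSRNOT00000007702.7 in control rats 1 to 3, and its high-salt counts rounded to 0. Hectd2 (ENSRNOT00000083002.1) had 23.6, 0 and 46.9 counts against 0 in all high-salt libraries. Nedd4l, a ligase that removes sodium channels from the cell surface, had the opposite direction. Its counts of ENSRNOT00000083363.1 rounded to 0 in every control rat and were 12.1, 144 and 0 in high-salt rats 1 to 3. Of these 4, Rnf123 alone had counts in every library of the higher group, as Usp1 and Wdr48 had.

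The sums of these groups moved less than the listed transcripts did, but the listed transcripts had been selected for a change in their own row. The log2 fold change of the sum was 0.36 for Birc3, -0.05 for Hectd2 and 0.03 for Nedd4l, each at an adjusted p = 1 by the edgeR exact test. Over the 8 transcripts of both lists, 7 were lower under high salt, and the median difference in log2(CPM + 1) was -1.30. Over the 6 that had a read-sharing group, Usp1 and Wdr48 included, 3 sums were lower and the median difference of the sums was 0.02. Of the 8, 3 were the transcripts chosen for being lower, and 4 of the other 5 were lower. Over all 24253 transcripts tested the median was -0.04, and 55.4% were lower. Among the 367 transcripts of the study's list with a name used here, 44.7% were lower. Every transcript of both lists came from the study's list, so nothing particular is read from these counts.

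**Figure D4:**
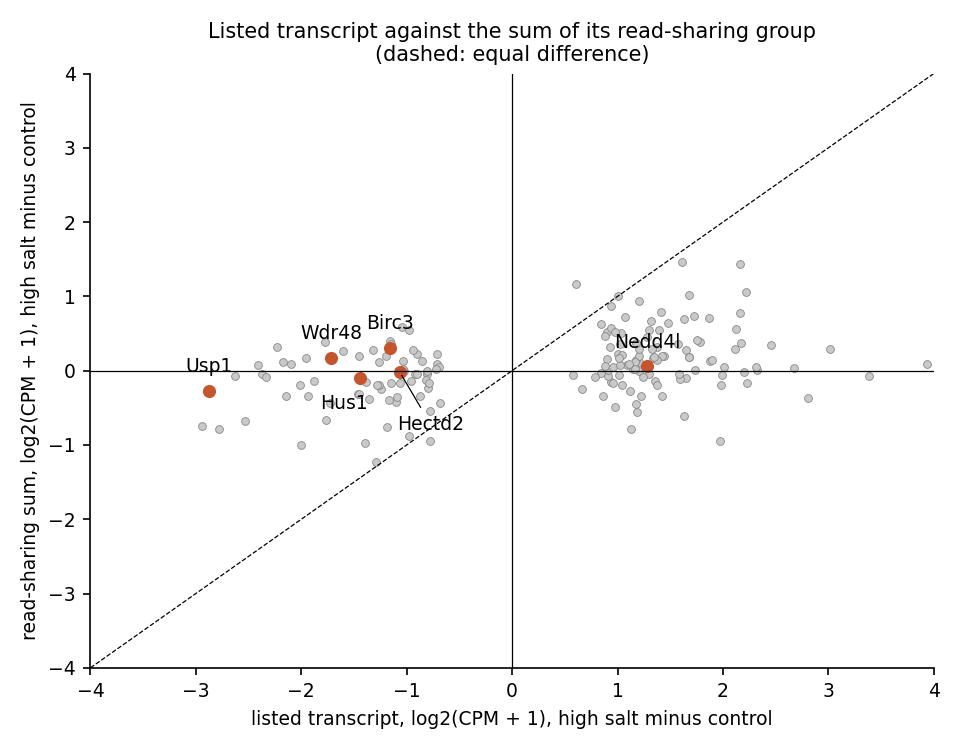
Each point is 1 of 178 listed transcripts with a read-sharing group, by its own difference in log2(CPM + 1), high salt minus control, and by that of the sum of its group, with members of both lists in orange. Usp1 lies at -2.88 and -0.28 and Wdr48 at -1.72 and 0.17 for the listed transcript and the sum, respectively.

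Among those 367 listed transcripts, 178 had a read-sharing group, Usp1 and Wdr48 included. The median size of their own difference, without sign, was 1.27 in log2(CPM + 1), and that of their sums was 0.22. The listed transcripts had been selected for a change in their own row and the other rows of the groups had not, so the larger own difference is fixed by the choice. The sum changed by less than 2-fold for 162 of the 178 in the exact test of edgeR, and 66 sums had the opposite sign to the listed transcript. Like counts over all read-sharing groups are not given, so nothing particular to the listed transcripts is read from these. The sum of Usp1 had the same sign as its listed transcript, and that of Wdr48 the opposite sign, which turned when control replicate 1 was left out.

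Groups of 2 rows, as those of Usp1 and Wdr48 are, were also counted over the whole table. Those with at least 100 counts in every library, a minimum chosen after the data were seen, numbered 1466. The minor row held 7.30% of the counts over all libraries for Usp1 and 2.31% for Wdr48. In 776 of the 1466 groups, or 52.9%, the minor row was at 0 in at least 1 library, and in 127 it was at 0 in exactly 3 libraries. The 3 were the high-salt libraries in 2 groups, Usp1 and Wdr48, and the control libraries in 2 other groups, Zfp189 and Taf5l, which were named after their values were seen. With the minor row limited to 2% to 20% of the counts, a range that holds Usp1 and Wdr48 and was chosen after the data were seen, 607 groups were left and these numbers were 2 and 0. The minor rows of Zfp189 and Taf5l held 28.5% and 1.70% of the counts, outside that range, so the 0 was fixed by its bounds. Over all rows of the table, in groups or not, 69 had at least 1 rounded count in every control library and 0 in every high-salt library, and 29 had the reverse. Usp1 and Wdr48 were chosen on these values, so nothing is read from their place in the counts.

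**Figure D5:**
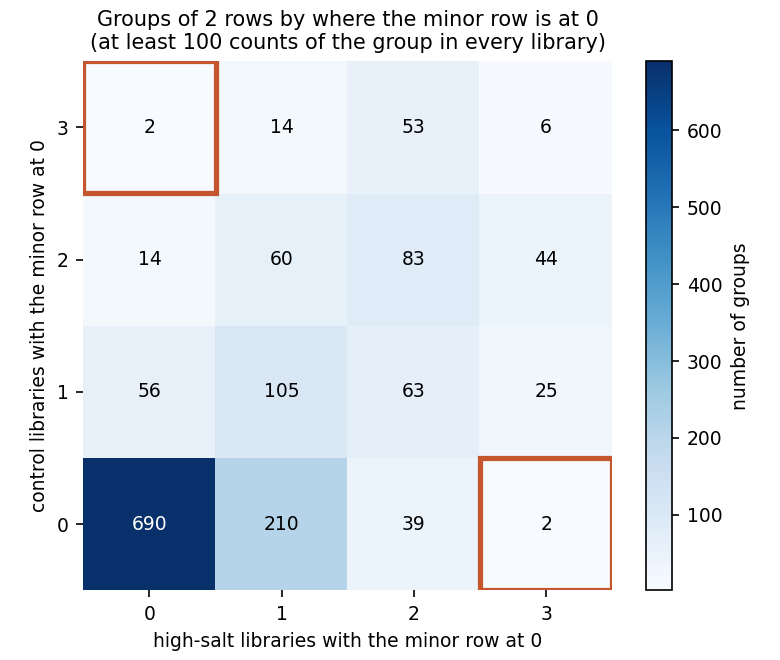
Each cell gives the number of read-sharing groups of 2 rows, of 1466 in all, by the number of control libraries (vertical axis) and high-salt libraries (horizontal axis) in which the minor row was at 0 counts. The outlined cell at the bottom right, at 0 in all 3 high-salt libraries and in no control library, holds 2 groups, those of Usp1 and Wdr48, and the outlined mirror cell at the top left also holds 2.

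The listed transcripts whose levels were most like those of Usp1 over the 6 libraries were those of Zfp41, Med12l and LOC103694169, with a Pearson r of log2(CPM + 1) of 0.96, 0.95 and 0.95. For Wdr48 they were those of Eno1, Dcst1 and Slc7a10, at 0.998, 0.99 and 0.98. The Eno1 transcript (ENSRNOT00000081579.1) had 18.7, 74.1 and 17.5 counts in control rats 1 to 3 and 0 in each high-salt rat, with control replicate 2 highest as for Wdr48. For Rfc1 they were those of Rps18, LOC100911734 and Col6a1, each at 0.9998. All 3 of these had their counts in control replicate 1, with 199, 156 and 88.6. The values are a description over 6 libraries that differ in depth and diet, among 367 transcripts listed for the same difference.

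The identity of the cells was checked little, because transcripts were named from the study's list alone. Of the 28 marker genes on the list used here, which covers smooth muscle, endothelium, fibroblasts, nervous tissue, leukocytes and dividing cells, 1 was paired with a transcript. This was Aqp4, the water channel of astrocytes, with 0.118, 0 and 202 counts in control rats 1 to 3 and high-salt counts that rounded to 0. Control replicate 3, the library with the 202 counts of Aqp4, was also the one with the highest level of Usp1. The Usp1 transcript was at 7.74 CPM in control replicate 1, with 0.118 counts of Aqp4, and at 3.49 CPM in control replicate 2, with 0. No run of adjacent rows closed the non-whole counts of the Aqp4 row to whole sums, so its counts need not be all those of the gene. The study's list also held transcripts of other genes known from nervous tissue, named here after their values were seen.

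Some of the nervous tissue transcripts had counts in control libraries and counts that rounded to 0 in all high-salt libraries, as Usp1 and Wdr48 had. Slc17a7, a glutamate transporter of synaptic vesicles, had 5, 56 and 0 counts in control rats 1 to 3, and Gad1, which makes the transmitter GABA, had 8, 0 and 40. Scn2a, a neuronal sodium channel, had 3.04 to 20.3 counts in the control libraries, and Gabra3, a GABA receptor subunit, had 1, 25 and 28. Arc, a gene of active neurons, had 17.0, 10.5 and 12 counts of its listed transcript in control rats 1 to 3, but the sum of its group of 2 rows was highest in high-salt replicate 1, at 61 counts, with a log2 fold change of -0.04 (edgeR exact test, adjusted p = 1). Listed transcripts of other genes known from neurons had 0 counts in every control rat. In high-salt rats 1 to 3, Ache had 29.6, 152 and 15.2 counts, Begain 1.42, 130 and 0, and Gpm6a 0, 125 and 0. The sums of their groups differed by 0.38, 0.36 and -0.49 in log2(CPM + 1), in that order. Pmch, a hypothalamic neuropeptide gene, had 7.75, 17.0 and 17.8 counts in high-salt rats 1 to 3, and Shank3, a scaffold of synapses, had 0, 142 and 0 counts of its listed transcript, with a difference of 0.07 in log2(CPM + 1) for the sum of its group of 7 rows. Kcnmb1, a potassium channel subunit of smooth muscle, had 0, 155 and 145 counts in control rats 1 to 3 and 0, 0 and 8.92 in high-salt rats 1 to 3 for ENSRNOT00000090659.1. The sum of its group of 3 rows differed by -0.43 in log2(CPM + 1). All of these transcripts were listed for a difference between the diets, and whether other cells in the arterial wall had a part in the levels of Usp1, Wdr48 or Rfc1 was not tested.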

How the data were processed

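The authors deposited estimated counts per transcript from Kallisto (expected counts, not scaled) for 3 control and 3 high-salt libraries on build Rnor_6.0. The submitters' processing notes also name Trimmomatic, FastQC, HISAT2 2.0.13 and edgeR. From these files, counts were rounded to whole numbers and compared with the exact test of edgeR 4.0.16 (TMM, Benjamini-Hochberg adjustment over all rows with a rounded count) in R 4.3.3. Sums over read-sharing groups were tested alike. DESeq2 1.42.0 and the quasi-likelihood test of edgeR were alternatives. Tables were made with Python 3.11.15 and pandas 2.3.3, and the tests and the grouping were tested on simulated data. Gene names came from matching each of 368 entries of the study's list to a row by fold change and p of the same test, and 10 entries had more than 1 candidate. Among its hub genes the study gives Clasp1 as lower under high salt, with the same fold change and p as Egf. The Clasp1 entry of the study's list was matched by its signed fold change to a row that was higher. The log2 fold change of that row was 7.28 (edgeR exact test). The values of the list were used for this match alone, and its transcripts also served as the named set for the comparison of rows with sums and for likeness. Named genes were the members, the rows sharing their reads, the paired genes of the pathway and ubiquitin lists, for each member the 3 named transcripts most like it, and paired cell type markers. Other genes were named after their values were seen. The members and lists were chosen with earlier results of these data known. Replicate numbers come from the sample titles. Deviations of same-numbered libraries correlated at 0.596, 0.230 and 0.296, all over 0.1, and the replicate block used these numbers. Each library is 1 rat, and the titles name no pairs. Control replicate 2 correlated more with high-salt replicate 3 (0.264), and control replicate 3 with high-salt replicate 2 was also over 0.1 (0.170). The correlations therefore cannot show that the libraries of replicates 2 and 3 were pairs. With 3 against 3, an exact permutation test cannot go under 0.1.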

Additional observations from a re-analysis of the deposited data

How the results depend on the processing

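The log2 fold change of the Usp1 sum kept its sign in all 14 alternatives, from -0.44 without high-salt replicate 1 to -0.17 without high-salt replicate 3, with an adjusted p of 0.992 to 1 in edgeR and DESeq2. The Wdr48 sum ranged from -0.18 without control replicate 1 to 0.28 without control replicate 3, and was -0.25 without replicate 1 of both groups, an alternative chosen after the data were seen. The cause of the sign change was not tested. For Rfc1, tested as a single row, leaving out 1 library gave -9.06 to 1.99, the last without control replicate 1, and its difference in log2(CPM + 1) lay from -1.74 without control replicate 2 or 3 to 0.022 without control replicate 1. This row did not pass the expression filter, so DESeq2, the quasi-likelihood tests and the filtered exact test gave it no value, and without replicate 1 of both groups it had no count.

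With the replicate block, the quasi-likelihood test gave -0.28 for the Usp1 sum and 0.16 for the Wdr48 sum, and against the same test without it the block changed no call. Transcripts under an adjusted p of 0.05, 1 in the exact test of edgeR, numbered 0 in the quasi-likelihood test with the replicate block and 0 without it, 6 in DESeq2, 2 after the expression filter, 3 to 12 with 1 library left out and 31 without replicate 1 of both groups. In the quasi-likelihood test with and without the block, an unadjusted p under 0.05 was reached by 327 and 141 transcripts and by 379 and 122 sums and single rows. Which genes the counts share was not tested. A pseudocount of 0.5 moved the transcript difference of Usp1 to -3.77 and that of Wdr48 to -2.46. In the high-salt libraries, all at a rounded count of 0, the exact interval of the share reached up to 0.537% for Usp1 and 0.388% for Wdr48, by counting error only.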

Other observations

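In the direction opposite to Usp1 and Wdr48, 2 rows had at least 20 counts, a minimum chosen after the data were seen, in every high-salt library and 0 in every control library. In their own direction 4 rows did, those of Usp1, Wdr48, Slc28a1 and Rnf123. Usp1 and Wdr48 were chosen on these values, so nothing is read from 4 against 2. A transcript of Slc4a10, a sodium bicarbonate transporter, had 25, 217 and 41 rounded counts in high-salt rats 1 to 3. The sum of its group of 6 rows had a log2 fold change of 1.47 (edgeR exact test, unadjusted p = 0.0268, adjusted p = 1). A transcript of LOC103693189 had 67, 25 and 45, and no run of adjacent rows closed to whole sums with it. Among groups of 2 rows with at least 100 counts in every library, the mirror of Usp1 and Wdr48 was seen for transcripts of Zfp189 and Taf5l. The Zfp189 row had 13, 279 and 40 rounded counts in high-salt rats 1 to 3 against 0 in each control rat, with a log2 fold change of 0.34 in the sum. The Taf5l row had 13, 9 and 12 counts against 0, with -0.02 in the sum (edgeR exact test, adjusted p = 1 for both sums). These rows were named after their values were seen.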
